A study of Bos taurus with 48 samples.

Results

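The cytochrome P450 genes of the bovine liver were followed from late pregnancy into early lactation. Every spot whose gene name began with CYP and a digit was taken, apart from CYP7A1, CYP8B1 and CYP27A1, which act in bile acid synthesis. The names in the deposited annotation lack the digit 0, so that CYP20A1 was written as CYP2A1. The rule gave 38 P450 genes on 88 spots out of 16308 gene names, and 37 of them were measured on at least 24 of the 48 arrays and tested beside 15006 genes in all. CYP27C1, seen on 19 arrays, was not tested.

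Cytochrome P450s are heme enzymes that insert oxygen into their substrates with electrons passed on by NADPH cytochrome P450 reductase and cytochrome b5, or by ferredoxin in mitochondria. In liver, families 1, 2 and 3 oxidize drugs, plant compounds and other foreign molecules, and family 4 hydroxylates fatty acids. Other members make steroid hormones, activate vitamin D, degrade retinoic acid or process sterols, and several of these are used mainly in the adrenal gland, gonads or other tissues. The nuclear receptors CAR (NR1I3), PXR (NR1I2) and PPARα, and the aryl hydrocarbon receptor, are the best known switches of the drug and fatty acid oxidizing genes.

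Liver biopsies came from 32 pregnant grazing dairy cows, 8 per group, brought to a BCS of 4 (BCS4) or 5 (BCS5) on a 10-point scale and fed 75 or 125% of their estimated requirements for the last 3 weeks before calving (B4F75, B4F125, B5F75 and B5F125). The same cows were sampled at −7, 7 and 28 d from calving. Age and the share of Jersey blood differed between the groups according to the methods, and the labels name American Holstein where the methods name mixed New Zealand breeds. RNA of 2 cows shared each of 48 two-color Agilent bovine arrays. Each of 16 cow pairs was set on 3 arrays, and the value of an array is the log2 ratio of its Cy5 cow over its Cy3 cow after centering of the array on its median. Ratios of later over earlier days came from 12 arrays of 4 pairs (1 pair per group, 8 cows), ratios of BCS5 over BCS4 from 24 arrays, and ratios of both feeding levels from 6 arrays within each BCS. In part of the BCS5 over BCS4 pairs the 2 cows also differed in feeding (B5F125 over B4F75, or B5F75 over B4F125). The fitted BCS values average both feeding levels. The files do not state which dye is the numerator. Cy5 over Cy3 is the likely order, from the usual red over green ratio of the scanner software and the directions in the study's gene lists, and the opposite order would turn every sign given here.

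A gene counts as called where its p before adjustment was 0.01 or less and its fold change 1.5 or more, the thresholds of the study's methods. No P450 gene reached an adjusted p under 0.05 in any of the 19 comparisons of the limma fit, so that all calls below rest on the unadjusted p. Few genes of any kind reached it, 0.02% at 28 d vs −7 d, 0.0133% at 28 d vs 7 d, 0.00668% in BCS5 vs BCS4 cows over all days, 0.0133% in B5F125 vs B5F75 cows over all days and at 7 d, and 0% in the other comparisons. The average RNA integrity number given in the labels was 8.18 ± 0.39 at −7 d, 7.77 ± 0.43 at 7 d and 8.17 ± 0.45 at 28 d. The 11 hepatocyte markers on the array were measured on all 48 arrays, with median signals between 741 and 45503, and none of them was called over the days.

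How brightly a gene was measured can be read from the ratios themselves. Each deposited value equals the log2 ratio of 2 whole numbers, which gives a lower bound for the signal of the spot. The median of this bound, called the signal here, was 50 or more for 25 of the 38 P450 genes and under 50 for 13, which are called dim. Among the bright genes were CYP2D14 (31118), CYP2E1 (21560), CYP1A2 (13795), CYP3A4 (11768) and CYP4A11 (10148), all well known liver enzymes. The dim genes were CYP1B1, CYP2S1, CYP4A22, CYP4B1, CYP11B1, CYP19A1, CYP21, CYP21A2, CYP26B1, CYP26C1, CYP27B1, CYP27C1 and CYP46A1, with medians from 3 to 41.5. CYP19A1 (aromatase, which makes estrogens), CYP11B1 (which makes cortisol) and CYP21A2 (21-hydroxylase) are enzymes of the gonads, placenta or adrenal. Of these, CYP11B1, CYP4A22 and CYP2S1 are dim by the median of their probes and each had 1 probe above 50 (1671, 726 and 331). CYP21 is an older name of CYP21A2. CYP3A4 and CYP3A5 carry human names that the RefSeq table lists for closely related bovine CYP3A genes, as is the case for CYP2C18, CYP2C19, CYP4F2 and CYP4F3, and close relatives may share probe signal.

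The first question was how the P450 genes moved with calving and the onset of lactation. CYP26A1, the enzyme that breaks down retinoic acid, was called 2.85-fold higher at 7 d and 2.66-fold higher at 28 d than at −7 d. CYP7B1, which hydroxylates oxysterols, was called 1.74-fold lower at 28 d than at 7 d and 1.52-fold lower than at −7 d. CYP2B6, a drug oxidizing enzyme known as a target of CAR, was called 1.91-fold lower at 28 d than at −7 d. Of the bright drug oxidizing genes, CYP2D14, CYP2E1, CYP3A4 and CYP3A5 had fitted means within a 1.5-fold change at both days after calving and were not called. CYP1A2 was 1.69-fold lower at 28 d and CYP2C19 1.52-fold higher at 7 d than at −7 d, and neither was called.

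One of 37 P450 genes (2.7%) was called at 7 d vs −7 d, where 1.59% of all 14978 genes with an estimate were called. At 28 d vs −7 d it was 3 of 37 (8.11%), against a background of 2.15%, and at 28 d vs 7 d it was 1 of 37 (2.7%), against 1.92%. The median log2 fold change of the 37 genes was −0.02 at 7 d vs −7 d, 0.05 at 28 d vs −7 d and −0.004 at 28 d vs 7 d, beside −0.02, 0.003 and 0.02 for all genes. At an unadjusted p under 0.05 there were 5, 6 and 5 P450 genes, beside 8.45%, 11.7% and 10.7% of all genes. The 95% interval lay within a 2-fold change either way for 23, 23 and 25 of the 37 genes, and for the others a 2-fold change could not be shown or excluded at this precision.

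**Figure D1:**
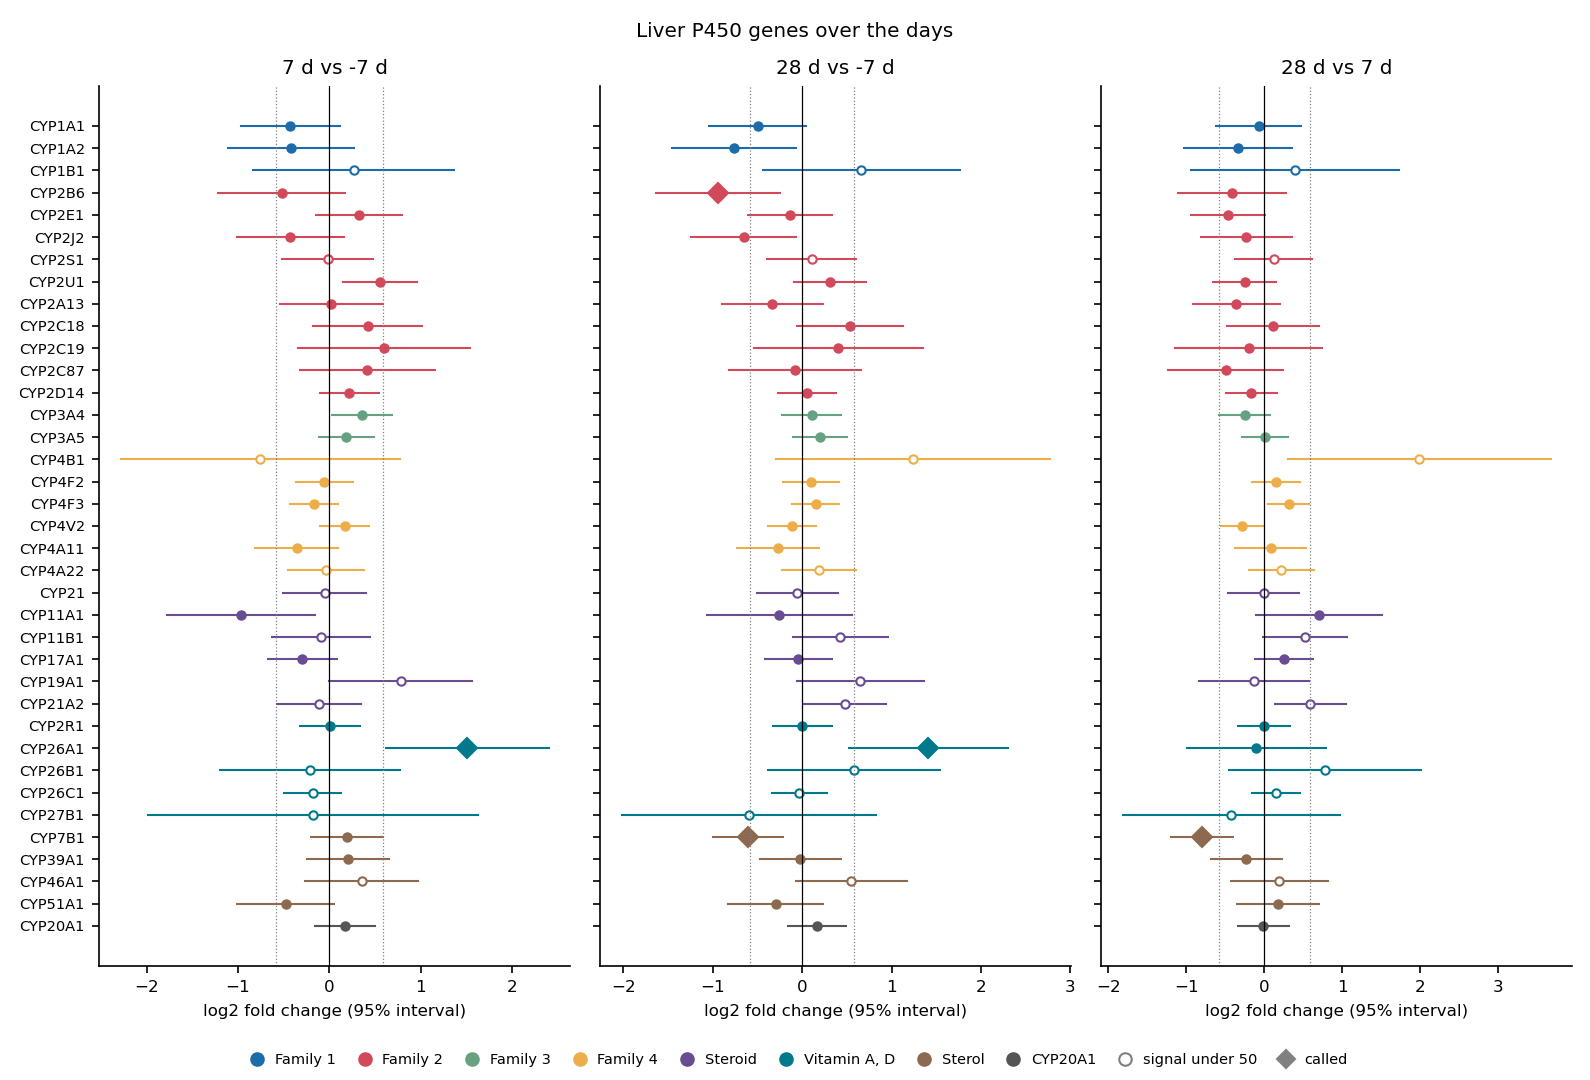
Log2 fold change of the 37 tested P450 genes (x axis, with 95% intervals) between the days, ordered by family (y axis and color); open symbols mark genes with a median signal under 50, diamonds mark called genes and dotted lines a fold change of 1.5. CYP26A1 stands at 1.51 and 1.41 in the comparisons with −7 d, and CYP7B1 at −0.80 and CYP2B6 at −0.94 are the called genes below 0 with the farthest values.

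CYP26A1 belongs to the retinoic acid hydroxylases, whose transcription is itself known to be raised by retinoic acid. On the 4 arrays of 7 over −7 d the log2 ratio was 2.66 in B4F75, 1.87 in B4F125, 3.70 in B5F75 and 1.92 in B5F125. All 4 arrays were thus above 0. An array compares 2 different cows, so the mean of the 3 arrays of a pair, which holds the difference between the 2 cows and the dyes, was taken off. The changes were then 0.85, 0.99, 2.11 and 2.09 in the same order, and their mean is the fitted log2 fold change of 1.51 (SE 0.44, adjusted p = 0.241).

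At 28 over −7 d the arrays of CYP26A1 read −0.68 in B4F75, 0.32 in B4F125, 0.74 in B5F75 and 1.17 in B5F125, with 3 of 4 above 0. After the pair mean was taken off they were 1.12, 1.195, 2.33 and 1.00. The fitted log2 fold change was 1.41 (SE 0.44, adjusted p = 0.198). The call was lost without the B5F125 pair at 7 d (0.96) and without the B5F75 pair at 28 d (1.06). A fit to the 12 arrays between days alone gave the same values with an SE of 0.57 and called neither.

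The 3 probes of CYP26A1 each gave a log2 fold change above 1 at 7 d, namely 1.69, 1.14 and 1.70. At 28 d they gave 1.60, 0.95 and 1.69. Between 28 and 7 d the fitted value was −0.10 (SE 0.44), and the pairs stood at 0.27 in B4F75, 0.20 in B4F125, 0.23 in B5F75 and −1.09 in B5F125. All 4 pairs were thus above −7 d at both days after calving. The fitted changes of the groups, which draw on all arrays, were 1.26 in B4F75, 1.44 in B4F125, 2.47 in B5F75 and 0.88 in B5F125 at 7 d vs −7 d (SE 0.59 each). At 28 vs 7 d the fitted change was 0.196 in B5F125 and −0.91 in B5F75, where the single pairs had the opposite order. The difference between the groups was not tested.

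**Figure D2:**
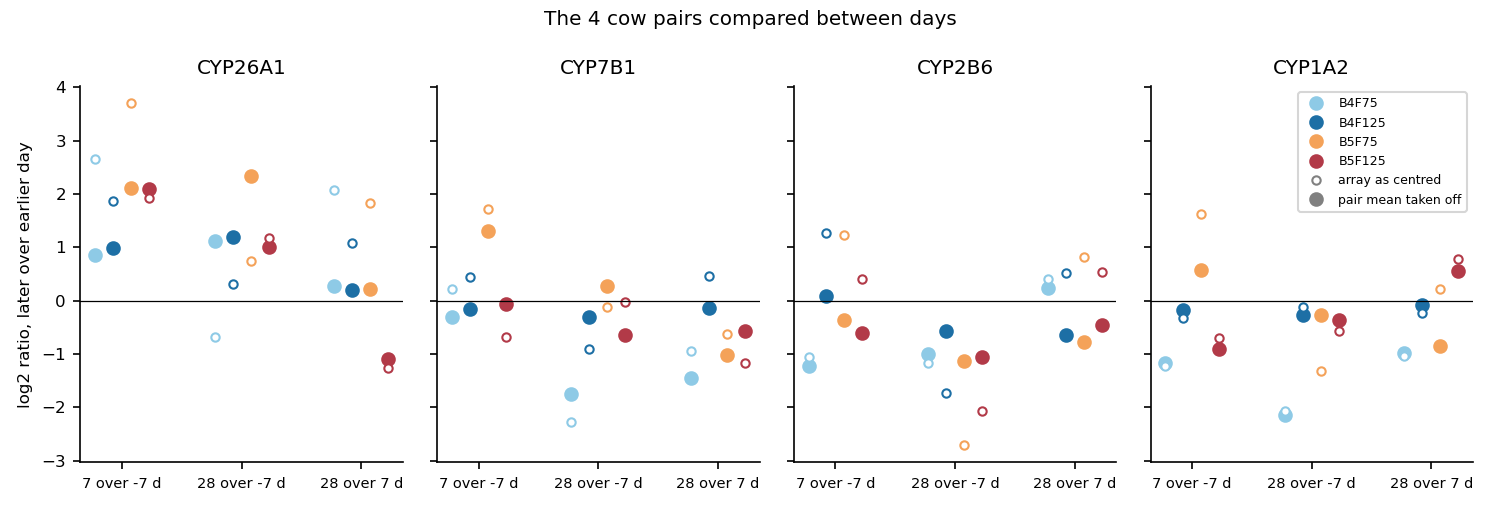
Log2 ratio of the later over the earlier day (y axis) of CYP26A1, CYP7B1, CYP2B6 and CYP1A2 in each comparison of days (x axis), on the arrays of the 4 cow pairs compared between days (1 pair per group, color); open points are the centered arrays and filled points the same arrays after the mean of the pair's 3 arrays was taken off. All 4 filled points of CYP26A1 lie above 0.8 at 7 over −7 d and 1.00 or higher at 28 over −7 d, and all 4 of CYP2B6 lie below −0.5 at 28 over −7 d.

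None of the other tested enzymes of vitamin A and D was called in the mean of the groups, and their difference from CYP26A1 was not tested. CYP26B1, the second retinoic acid hydroxylase, was dim (signal 5) and had log2 values of −0.21 (SE 0.48) at 7 d and 0.58 (SE 0.47) at 28 d. Within B5F75 its fitted value at 28 d vs −7 d was 1.496 (SE 0.52), beside 1.55 (SE 0.59) for CYP26A1. CYP26C1, the third, lies next to CYP26A1 in the RefSeq table with no protein-coding gene between, and read −0.18 (SE 0.15) and −0.03 (SE 0.15). CYP2R1, a vitamin D 25-hydroxylase, stood at 0.01 and 0.00 (SE 0.16 each), with 95% intervals from −0.32 to 0.33 at both days. CYP27B1, the kidney enzyme that makes active vitamin D, was measured on 37 arrays with a signal of 7 and an SE of 0.88 at 7 d.

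CYP7B1 did not change detectably from −7 to 7 d (log2 fold change 0.19, SE 0.20) and was lower at 28 d. The arrays of 28 over 7 d read −0.94 in B4F75, 0.46 in B4F125, −0.63 in B5F75 and −1.18 in B5F125. With the pair mean taken off all 4 were below 0, at −1.46, −0.14, −1.03 and −0.57. The fitted log2 fold change was −0.80 (SE 0.20, adjusted p = 0.109), the smallest adjusted p among the P450 genes in the comparisons of days. Without the B4F75 pair it was −0.53 and not called, and on the 12 arrays between days alone the same value had an SE of 0.24 and was not called.

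Both probes of CYP7B1 were below 0 in that comparison, at −0.60 for the brighter (signal 965) and −0.99 for the dimmer (signal 74.5). Against −7 d, CYP7B1 at 28 d was at −0.60 (SE 0.20, adjusted p = 0.215), and its pairs read −1.76 in B4F75, −0.30 in B4F125, 0.28 in B5F75 and −0.64 in B5F125. The B4F75 pair carried much of this value, which was −0.23 without it, and the brighter probe alone gave −0.37 and was not called. On the arrays between days alone this call was also lost.

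Of the other sterol P450s, CYP51A1, the lanosterol demethylase of cholesterol synthesis, stood at −0.47 (SE 0.26) at 7 d and −0.29 (SE 0.26) at 28 d vs −7 d. CYP39A1, an oxysterol hydroxylase of the liver, stood at 0.21 and −0.02 (SE 0.22 each). CYP46A1, the cholesterol hydroxylase of brain, was dim and read 0.35 and 0.55 (SE 0.31 each). None of these was called.

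CYP2B6 read −1.16 in B4F75, −1.73 in B4F125, −2.71 in B5F75 and −2.07 in B5F125 on the arrays of 28 over −7 d. All 4 were below 0, and with the pair mean taken off they were −0.99, −0.56, −1.13 and −1.06. The fitted log2 fold change was −0.94 (SE 0.34, adjusted p = 0.281), with −0.97, −1.12 and −0.74 for its 3 probes. This call stood near the threshold, since it remained in 4 of 16 fits that left out a cow pair, while the value kept its sign in all of them (−1.10 to −0.73), and it was lost on the arrays between days alone (SE 0.49).

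At 7 d vs −7 d CYP2B6 was at −0.52 (SE 0.34), between the values of the other days, and its pairs ranged from −1.22 in B4F75 to 0.09 in B4F125. On the uncorrected arrays of 28 over 7 d all 4 values lay above 0 (0.40 to 0.81), and with the pair mean taken off 3 of 4 lay below 0. The sign of this comparison thus depended on whether the pair mean was taken off.

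In family 1, CYP1A1 and CYP1A2, the enzymes best known as targets of the aryl hydrocarbon receptor, lie side by side and were not called over the days. CYP1A2 read −0.42 (SE 0.34) at 7 d and −0.76 (SE 0.34, adjusted p = 0.379) at 28 d vs −7 d. Its 4 pairs at 28 d were at −2.14 in B4F75, −0.27 in B4F125, −0.27 in B5F75 and −0.36 in B5F125. All 4 were below 0, and B4F75 stood far from the others. Within B5F75 the fitted values at 7 d were above 0 for both genes (0.085 for CYP1A2 and 0.079 for CYP1A1). CYP1A1 read −0.42 and −0.50 (SE 0.27 each), and its pairs at 28 d ran from −1.63 in B4F75 to 0.05 in B5F125. The fitted changes of the groups, which draw on all arrays, had another order at 28 d vs −7 d. CYP1A2 was at −0.71 in B4F75, −0.56 in B4F125, −0.63 in B5F75 and −1.125 in B5F125 (SE 0.46 each). CYP1A1 was at −0.45, −0.35, −0.22 and −0.96 in the same order (SE 0.36 each). The difference between the groups was not tested. CYP1B1, a family member used mainly outside the liver, had a signal of 3 and SEs of 0.54.

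Family 2, with CYP2R1 set among the vitamin A and D enzymes, held 10 tested genes. Of these 7 were above 0 at 7 d vs −7 d with a median of 0.28, a direction count that was not tested against other genes. None was called at 7 d in the mean of the groups. CYP2U1, a fatty acid hydroxylase, read 0.56 (SE 0.20, adjusted p = 0.386), a fold change of 1.47 just under the 1.5-fold threshold. Its fitted change within B5F75 was 0.96 (SE 0.27) and passed both thresholds there. In B4F75, B4F125 and B5F125 it was 0.47, 0.195 and 0.60 (SE 0.27 each), and the difference between the groups was not tested. Changes within single groups are not among the comparisons counted above and are given without a share of all genes. Other P450 genes also passed within a group, among them CYP26A1 at 7 d vs −7 d (2.47) and CYP21A2 at 28 vs 7 d (0.89) in B5F75. CYP7B1 at 28 vs 7 d passed in B4F75, B5F75 and B5F125, and CYP2B6 at 28 d vs −7 d in B5F125. The 3 CYP2C genes read 0.42 for CYP2C18 (SE 0.29), 0.60 for CYP2C19 (SE 0.47) and 0.42 for CYP2C87 (SE 0.37). CYP2E1, which oxidizes ethanol, ketone bodies and other small molecules, read 0.33 (SE 0.23) at 7 d, −0.14 (SE 0.23) at 28 d, and −0.47 (SE 0.23) at 28 vs 7 d.

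The pairs of CYP2E1 did not share a direction. At 7 over −7 d they read −1.06 in B4F75, 0.62 in B4F125, 1.36 in B5F75 and 0.40 in B5F125. The B4F75 pair was below 0 where the other 3 were above. The fitted change within B5F75, also outside the comparisons counted above, was 0.90 (SE 0.31) and passed both thresholds there. The 95% interval of the mean over the groups reached 0.80, beyond a 1.5-fold change. CYP2D14, the bovine CYP2D enzyme, read 0.22 and 0.05 (SE 0.16 each), with a 95% interval at 28 d from −0.27 to 0.38, which lies within a 1.5-fold change. CYP2J2, which makes epoxides of arachidonic acid, was at −0.43 and −0.65 (SE 0.29 each), and its name was not found in the RefSeq table. CYP2A13 stood at 0.02 and −0.33 (SE 0.28 each), and CYP2S1 at −0.02 and 0.11 (SE 0.24 each).

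Family 3 holds the broad drug oxidizers, and neither of its 2 genes was called. CYP3A4 read 0.36 (SE 0.16, adjusted p = 0.542) at 7 d and 0.11 (SE 0.16) at 28 d vs −7 d. CYP3A5 read 0.19 and 0.20 (SE 0.15 each). The 95% intervals of both genes at 28 d lay between −0.22 and 0.50.

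In family 4 no gene was called over the days. CYP4A11, a fatty acid ω-hydroxylase known as a target of PPARα, read −0.36 and −0.27 (SE 0.23 each), with 95% intervals from −0.81 to 0.10 and from −0.73 to 0.19. CYP4V2, a fatty acid hydroxylase, read 0.17 and −0.11 (SE 0.13 each), and CYP4F2 and CYP4F3, which inactivate leukotrienes in other species, stood between −0.16 and 0.15. CYP4A22, a second ω-hydroxylase, read −0.04 and 0.19 (SE 0.20 each). CYP4B1 had a value of 2.00 at 28 vs 7 d, with an SE of 0.82 and a signal of 10.

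Among the steroid hormone P450s, CYP11A1 splits the side chain of cholesterol in the adrenal, gonads and placenta. It had a signal of 188 here and a brightest probe at 1604. It read −0.96 (SE 0.40, adjusted p = 0.476) at 7 d and −0.25 (SE 0.40) at 28 d vs −7 d. Its pairs at 7 d were at 0.09 in B4F75, −0.87 in B4F125, −1.43 in B5F75 and −1.64 in B5F125. Of these 3 were below 0, and the 3 probes read −1.11, −0.98 and −0.80. CYP17A1, which makes androgens and cortisol precursors, read −0.29 and −0.04 (SE 0.19 each). CYP21A2 read −0.11 and 0.48 (SE 0.23 each), and the probes under its older name CYP21 read −0.05 and −0.05 (SE 0.22 each), and the difference between the 2 names was not tested. CYP11B1 read −0.09 and 0.43 (SE 0.26 each), and CYP19A1 0.78 (SE 0.39) and 0.65 (SE 0.35) at a signal of 4. CYP20A1, a P450 with no settled role, read 0.17 and 0.16 (SE 0.16 each).

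**Figure D3:**
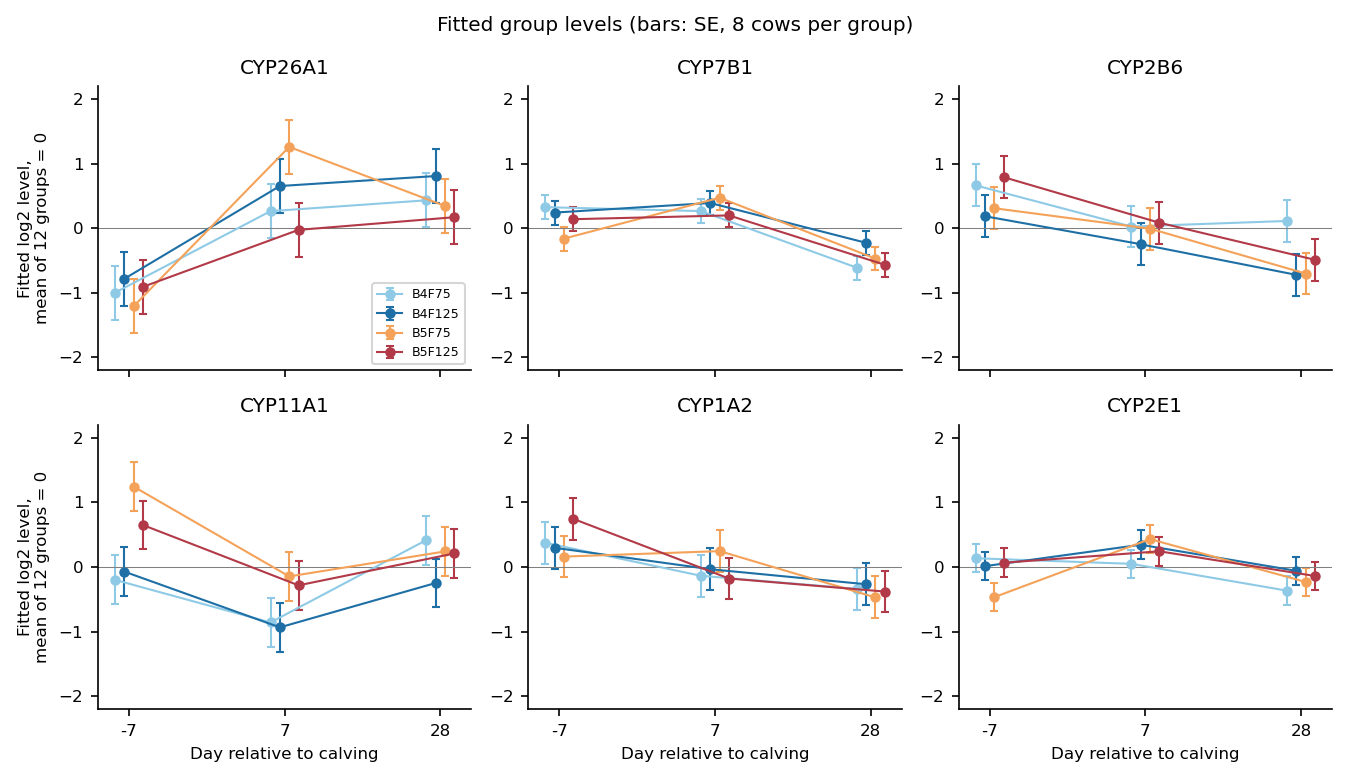
Fitted log2 level (y axis, relative to the mean of the 12 groups) of 6 P450 genes at −7, 7 and 28 d (x axis) in the 4 groups of 8 cows (color), with bars of 1 SE. CYP26A1 lies between −1.21 and −0.78 in the 4 groups at −7 d and between −0.03 and 1.26 at 7 d, while CYP11A1 is highest in the BCS5 groups at −7 d (1.24 and 0.65).

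The electron donors, the heme pathway and the regulators were described by lists chosen for their role. Of 12 redox partner genes tested none was called over the days. POR, the P450 reductase, read −0.11 (SE 0.23) and CYB5A −0.19 (SE 0.13) at 7 d vs −7 d. Of 12 genes of heme synthesis and breakdown none was called either, and their medians were −0.07 at 7 d and −0.06 at 28 d vs −7 d.

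Among 24 regulators tested, AHR (0.11, SE 0.19), NR1I2 (−0.04, SE 0.22), NR1I3 (−0.09, SE 0.18) and PPARA (−0.08, SE 0.22) were not called at 7 d vs −7 d. RXRG, a retinoid receptor, was called lower at 7 d (−1.47, SE 0.44, adjusted p = 0.245) at a signal of 21.8. FOXA3, a liver transcription factor, was called higher at 28 d vs −7 d (1.27, SE 0.32, adjusted p = 0.107). ARNT, the partner of the aryl hydrocarbon receptor, was called higher at 28 d vs −7 d (0.92, SE 0.28) and vs 7 d (0.99, SE 0.28) at a signal of 8.5.

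Of 23 genes of conjugation and other drug metabolism, SULT1E1, the estrogen sulfotransferase, was called higher at 7 d (1.76, SE 0.51) and 28 d (1.42, SE 0.51) vs −7 d at a signal of 18.5. EPHX1, the epoxide hydrolase that acts on P450 products, was called lower at 28 d vs −7 d (−0.78, SE 0.26). ABCG2, an efflux pump, was called lower at 28 vs 7 d (−0.64, SE 0.19). At 28 d vs −7 d 16 of the 23 genes were below 0, with a median of −0.12. Of 15 partners of steroid synthesis and reduction 14 were below 0 at 28 d vs −7 d, with a median of −0.24. AKR1D1 (−0.71, SE 0.17, adjusted p = 0.0910) and HSD17B13 (−0.62, SE 0.21) were called lower. The direction counts of these lists were not tested against other genes.

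Markers of other cells moved over the same days. HBB, a hemoglobin chain, was called higher at 7 d (1.82, SE 0.48) and at 28 d (1.80, SE 0.48) vs −7 d, and HBA at 28 d (0.61, SE 0.22), 2 of the 3 erythroid markers tested. Of 8 endothelial markers 7 were below 0 at both days, with medians of −0.27 and −0.35, and STAB1 was called lower at 28 d (−0.65, SE 0.21). S100A8, 1 of 6 neutrophil markers, was called higher at 28 vs 7 d (1.05, SE 0.37). Of 8 macrophage, 7 cholangiocyte and 5 stellate markers none was called. The part of these shifts in the P450 values was not tested, and in bulk tissue fewer cells of a type and less RNA per cell cannot be told apart.

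The second question was whether the P450 genes differed between BCS5 and BCS4 cows. Over all days 1 of 37 was called (2.7%), against a background of 0.174%, and 3 had an unadjusted p under 0.05, beside 2.68% of all genes. This was CYP4B1, a dim gene of 1 probe measured on 38 arrays. At −7 d it was CYP11A1, 1 of 37 (2.7%) against 0.313%, and 2 genes had an unadjusted p under 0.05, beside 2.47%. At 7 d and 28 d none was called by the limma fit, against backgrounds of 0.881% and 0.273%. At each of these days 2 genes had an unadjusted p under 0.05, beside 5.31% and 2.93% of all genes. The 95% interval of the mean over the days lay within a 2-fold change for 35 of 37 genes.

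CYP11A1 was called 2.12-fold higher in BCS5 than in BCS4 cows at −7 d. The 8 arrays of that day, from pairs of equal and of unequal feeding, read −1.70, −0.73, 0.58, 1.16, 1.503, 1.58, 2.06 and 2.48, in order of size. Of these 6 were above 0, and the lowest came from the pair that was also the lowest at 7 d (−0.50) and at 28 d (−2.16). The fitted log2 fold change was 1.08 (SE 0.35, adjusted p = 0.999), and the 3 probes gave 1.16, 1.00 and 1.08. The call remained in 9 of 16 fits without a cow pair and was lost on the arrays within a day alone (0.86).

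Over all days CYP11A1 stood at 0.63 (SE 0.25, adjusted p = 1.00) in BCS5 vs BCS4 cows and was not called. The 8 arrays had medians of 1.33 at −7 d, 0.98 at 7 d and 0.61 at 28 d. HBB, the erythroid marker, was called lower in BCS5 cows at −7 d (−1.42, SE 0.41), and 7 of 8 endothelial, 7 of 8 macrophage and 5 of 5 stellate markers were above 0 there, with medians of 0.16, 0.15 and 0.16. Of the 11 hepatocyte markers 10 were below 0, with a median of −0.19. None of these 4 lists held a called gene, and the part of the shifts in the CYP11A1 value was not tested.

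**Figure D4:**
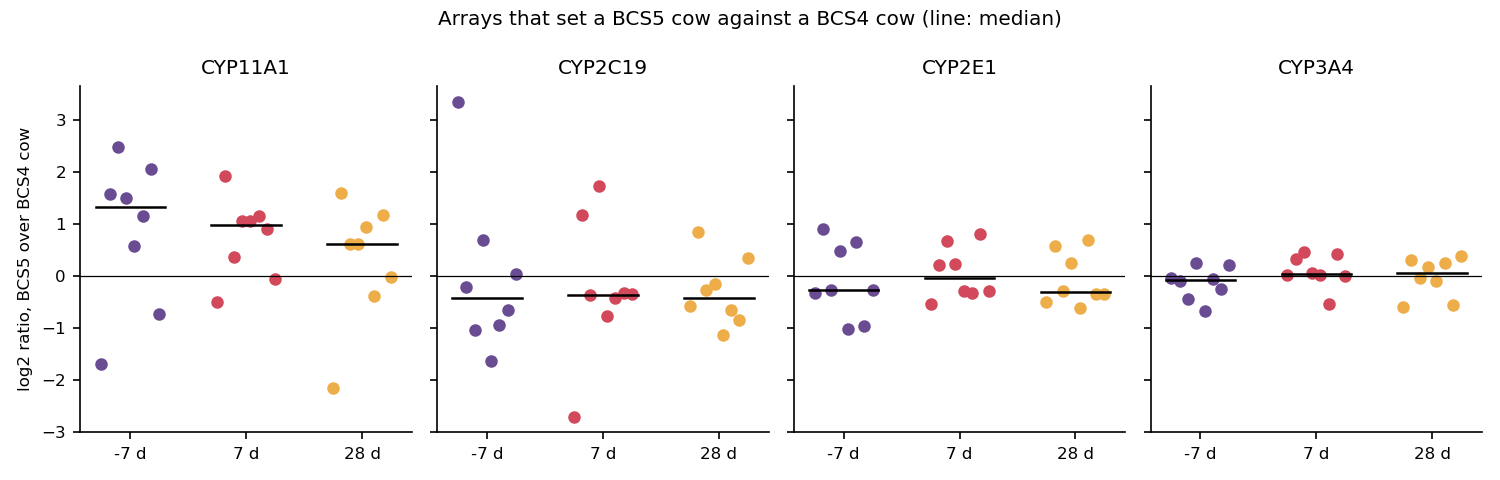
Log2 ratio of the BCS5 over the BCS4 cow (y axis) on the 8 arrays of each day (x axis) for CYP11A1, CYP2C19, CYP2E1 and CYP3A4, with the median as a line. The cows of part of the pairs also differ in feeding. CYP11A1 ranges from −1.70 to 2.48 at −7 d with 6 of 8 arrays above 0, CYP2C19 reaches 3.35 on 1 array, and the arrays of CYP3A4 stay between −0.67 and 0.47 over the 3 days.

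Differences between single cows were wide for a few P450 genes. In the 12 pairs compared within a day, the 2 cows were the same at all 3 days, so that a lasting difference between them returns on each array. The SD between pairs, after the spread between arrays of a pair was taken off, was 1.00 log2 for CYP11A1, 0.75 for CYP2C19, 0.59 for CYP2C18, 0.55 for CYP26A1, 0.53 for CYP2C87 and 0.52 for CYP2B6. The median was 0.16 over 10982 genes measured on all 36 arrays, and 0.701% of these had a larger value than CYP11A1. It includes the difference between the groups of the 2 cows.

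For CYP11A1, 7 of 12 pairs had the same sign on all 3 arrays, with pair means from −1.76 to 1.36, where a gene of the 10982 had a median of 4 such pairs. In pair 3 the log2 ratio was −1.75 at −7 d, −1.75 at 7 d and −1.78 at 28 d, turned to the same cow and with the dye term taken off. In pair 13 it was 0.84, 1.29 and 1.23. Pairs with the same sign on all 3 arrays numbered 7 for CYP2C19, 6 each for CYP2C18 and CYP2B6, 4 for CYP2C87 and 3 for CYP26A1. The 29 P450 genes measured on all 36 arrays had a median of 4 such pairs, the same as all genes. At the low end of the SD between pairs, CYP1A1, CYP4A22, CYP4V2 and CYP11B1 had no spread beyond that between arrays.

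Several bright drug oxidizing genes differed little with BCS. Over all days CYP2E1 read −0.04 (SE 0.14), CYP3A4 −0.02 (SE 0.10), CYP3A5 0.04 (SE 0.09) and CYP2D14 −0.13 (SE 0.10). The 95% intervals of these genes lay between −0.335 and 0.257, within a 1.5-fold change. CYP1A2 read 0.04 (SE 0.21) and CYP2C19 −0.20 (SE 0.29), and the interval of CYP2C19 reached −0.78, beyond a 1.5-fold change. CYP4A11 read −0.23 (SE 0.14) over all days and −0.41 (SE 0.19, adjusted p = 0.999) at 28 d, when 6 of 8 arrays were below 0. CYP4V2 read 0.16 (SE 0.08) over all days.

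CYP4B1, a P450 best known from lung, was called lower in BCS5 than in BCS4 cows over all days (−1.42, SE 0.49, adjusted p = 1.00). Its 19 arrays with a value ran from −4.78 to 3.69 with a median of −2.17, and 14 were below 0. Its signal was 10, and the call was lost in 3 of 10 other settings and in 6 of 16 fits without a cow pair. Without pair 5 the value was −0.68, and without the dim spots it could not be fitted.

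The third question was the effect of feeding before calving within each BCS. In BCS4 cows none of the 37 P450 genes was called by the limma fit over all days or at −7, 7 and 28 d, where 0.427%, 0.46%, 1.01% and 0.846% of all genes were called. At an unadjusted p under 0.05 there were 0, 1, 1 and 0 P450 genes, beside 3.53%, 3.36%, 5.23% and 4.71% of all genes. In BCS5 cows CYP46A1 was called at 7 d, 1 of 37 (2.7%) against 1.05%, and none over all days or at −7 and 28 d, against 0.447%, 0.64% and 0.393%. At an unadjusted p under 0.05 there were 3 P450 genes at 7 d, beside 4.89% of all genes, and 1, 2 and 2 in the other comparisons, beside 3.04%, 4.09% and 1.96%.

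CYP2B6 read −0.53 (SE 0.30) in B4F125 vs B4F75 over all days, and all 6 arrays, which come from 2 cow pairs, were below 0 (−1.19 to −0.15). With the dye term taken off 5 of the 6 were below 0, and pair 7 at −7 d was above. In B5F125 vs B5F75 it read 0.26 (SE 0.30), and 5 of 6 arrays, also of 2 cow pairs, were above 0 (−0.48 to 1.62). Neither value was called, and the test of the difference over all days, 0.79 (SE 0.42, adjusted p = 0.999), was not called either. CYP26A1 read −1.28 (SE 0.54, adjusted p = 0.937) in B5F125 vs B5F75 at 7 d and was not called. Its difference between the BCS classes at that day was −1.67 (SE 0.76, adjusted p = 0.927) and was not called.

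CYP46A1 read 1.66 and 1.13 on the 2 arrays of B5F125 over B5F75 at 7 d, and its fitted value was 1.06 (SE 0.38, adjusted p = 0.872). Its 3 probes, with signals of 5, 7 and 9.5, gave 0.74, 2.55 and 0.02, and the call was lost on the probe measured on most arrays. CYP4B1 read 1.21 (SE 0.69) in BCS4 and −1.72 (SE 0.78) in BCS5 cows over all days. The difference was called at −2.93 (SE 0.99, adjusted p = 0.999; −1.49 and not called without pair 4), 1 of 37 (2.7%) against 0.447%, and none was called for the difference at −7, 7 or 28 d, against 0.42%, 0.987% and 0.633%. At an unadjusted p under 0.05 there was 1 P450 gene over all days and 1, 2 and 0 at the single days, beside 3.33%, 2.85%, 5.27% and 3.07% of all genes. Only 5 and 3 of the 6 arrays of each feeding comparison had a value for CYP4B1.

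Several bright genes were close to 0 in both classes over all days. CYP2E1 read 0.16 in BCS4 and 0.15 in BCS5 cows (SE 0.20 each), CYP3A4 −0.07 and 0.02 (SE 0.14 each), CYP2D14 0.15 and −0.07 (SE 0.14 each) and CYP4A11 −0.03 and 0.01 (SE 0.20 each). The 95% intervals of CYP3A5 lay between −0.26 and 0.27 in both classes. CYP1A2 read 0.03 in BCS4 and 0.08 in BCS5 cows (SE 0.30 each), and CYP2C19 0.08 and −0.50 (SE 0.41 each). The 95% interval of CYP2C19 in BCS5 cows reached −1.32, and neither gene was called. CYP2C87 read −0.95 (SE 0.45) in B5F125 vs B5F75 at 28 d and CYP1A1 0.67 (SE 0.33) at −7 d, neither of them called.

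**Figure D5:**
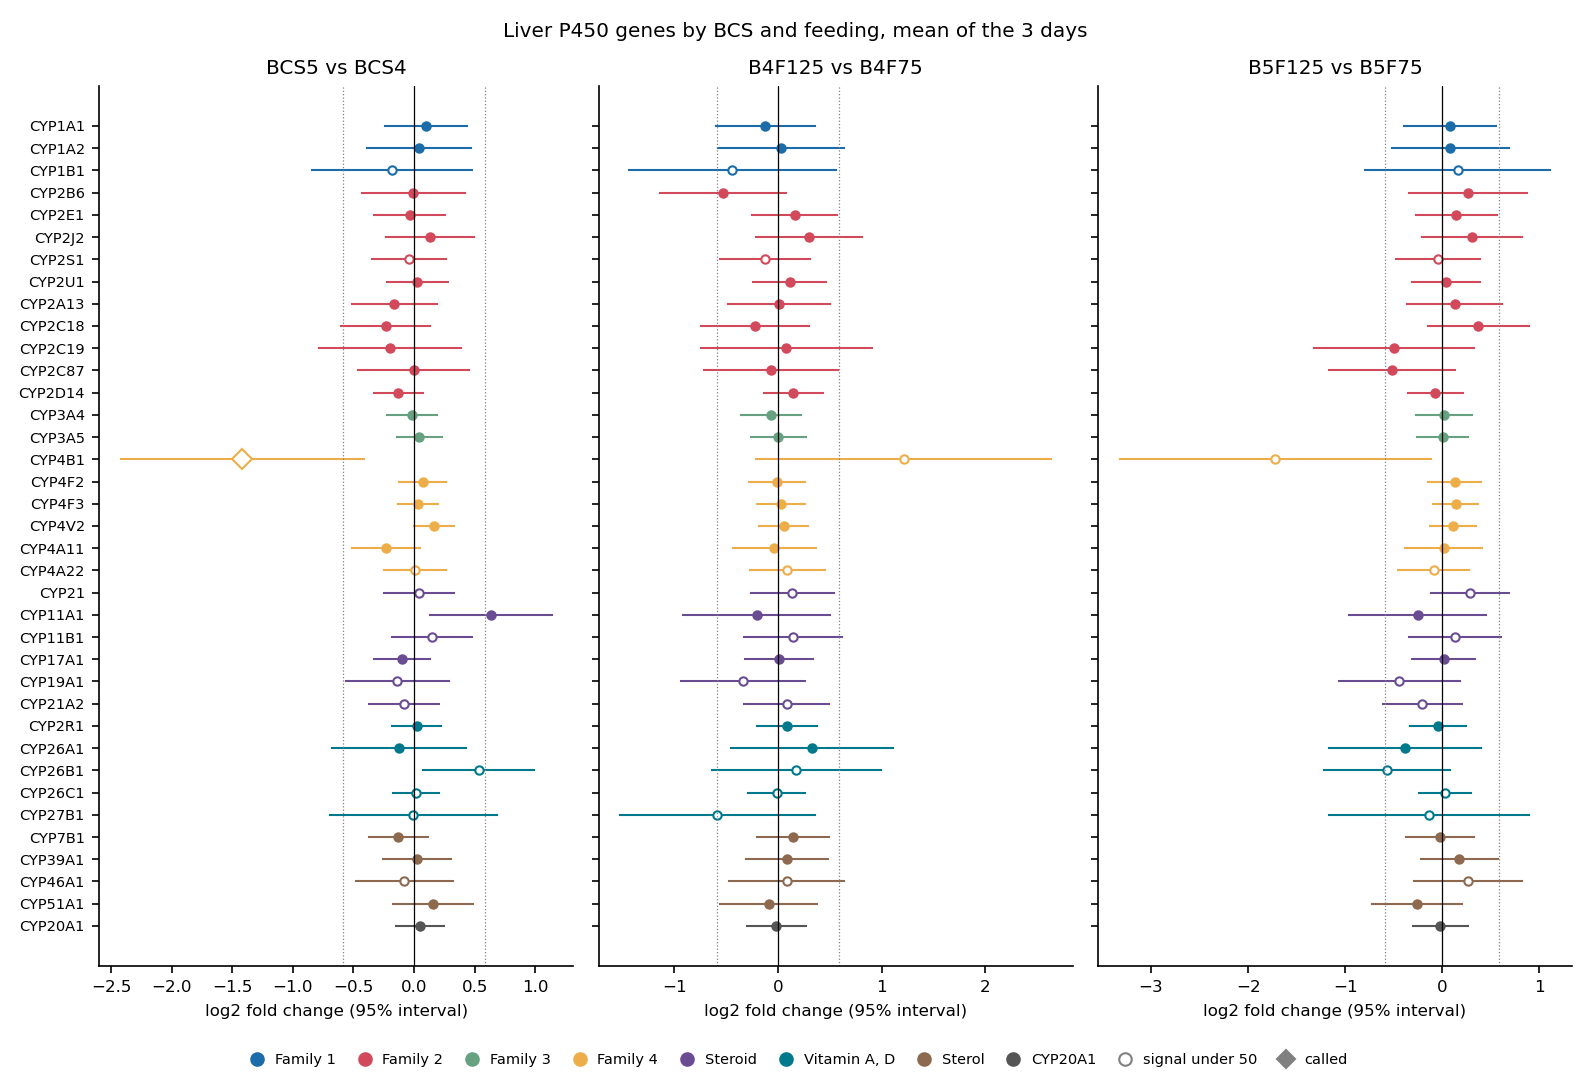
Log2 fold change of the 37 tested P450 genes (x axis, with 95% intervals) for BCS5 vs BCS4 cows and for both feeding levels within each BCS, as means of the 3 days, ordered by family (y axis and color); open symbols mark genes with a median signal under 50, diamonds mark called genes and dotted lines a fold change of 1.5. CYP4B1 at −1.42 in the first panel is the called gene, and CYP3A4 and CYP3A5 lie between −0.07 and 0.04 in all 3 panels.

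Among the partner lists, feeding went with CYB5R2, a cytochrome b5 reductase. It was called lower in B4F125 than in B4F75 over all days (−1.78, SE 0.35, adjusted p = 0.319) and at −7 d (−2.16, SE 0.48), 7 d (−1.78, SE 0.53) and 28 d (−1.38, SE 0.48), at a signal of 7 on 38 arrays. S100A9 (−1.66, SE 0.39) and S100A12 (−0.997, SE 0.31), from a list of 6 neutrophil markers, were called lower in B4F125 at 7 d, where 1.01% of all genes were called. APOA1, 1 of 11 hepatocyte markers, was called lower in B5F125 at −7 d (−1.43, SE 0.39) and in BCS5 cows at 28 d (−0.78, SE 0.28). In B5F125 cows HBB, 1 of 3 erythroid markers tested, was called higher at −7 d (1.95, SE 0.58). AGR2, 1 of 7 cholangiocyte markers and measured on 34 arrays, was called lower there at 7 d (−3.22, SE 0.72) and over all days (−1.59, SE 0.43). The shares of all genes called in B5F125 vs B5F75 were 0.64% at −7 d, 1.05% at 7 d and 0.447% over all days. The part of these marker differences in the P450 values was not tested.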

How the data were processed

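The deposited values are log2 ratios of the 2 cows on each two-color array, scanned by the authors with a GenePix scanner after removal of substandard spots. Lowess normalization and array centering are named in the methods. The array medians of the deposited values ran from 0 to 0.521, so that the arrays were not centered. Each deposited value also equals the log2 ratio of 2 whole numbers, which a lowess correction would not be likely to leave. A loess curve over signal was compared between the brightest and the dimmest spots of each array. The difference ran from −0.993 to 0.93 log2, with 0.0276 on the median array. The main fit used no loess correction, and the counts with it are given below. The genome build is not given in the sources used here. Here the median of each array was subtracted, the probes of each gene name were averaged, and genes on at least 24 of 48 arrays were kept. Names lacking the digit 0 were restored where a single gene matched. The 12 group means and a dye term were fitted by generalized least squares, the cow pair being a random block (correlation 0.151), with variances moderated in limma 3.58.1 (R 4.3.3) and p-values adjusted by Benjamini-Hochberg over all genes tested. The 3 arrays of a pair share its cows by design, which is where the block comes from. The steps were tested on simulated data. Values are given for every called P450 gene, for a list of P450 genes of known role whatever their values, and for called genes of the other lists. One result on another list is not reported here. The members and lists were chosen with earlier results of these data known. Alternatives covered centering, scaling, probes, block, dye term, filters, thresholds and left-out cow pairs. Of a second table the gene names were used, and its 48 columns of values were not. The number of arrays limits the precision.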

Additional observations from a re-analysis of the deposited data

Results flagged for a closer look

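Single pairs or arrays stood far from the rest of their set in 15 of 208 sets of 4 to 8 arrays examined, and chance alone sets about 1 in 20 apart. Among the cow pairs compared between days, the B5F75 pair of CYP7B1 was at 1.31 for 7 over −7 d, with the other 3 pairs from −0.30 to −0.07. At 28 over −7 d the B4F75 pair of CYP1A2 was at −2.14 (others −0.36 to −0.27) and that of CYP4F2 at −0.79 (others 0.28 to 0.48). The B5F75 pair of CYP26A1 was at 2.33 (others 1.00 to 1.195), and the B4F125 pair of CYP51A1 at 0.11 (others −0.45 to −0.41). At 28 over 7 d the B4F75 pair of CYP11A1 was at 1.80 (others 0.19 to 0.43) and the B5F125 pair of CYP26A1 at −1.09 (others 0.20 to 0.27).

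Among the 8 arrays of BCS5 over BCS4 cows at −7 d, pair 2 stood apart for 3 genes, with 3.35 for CYP2C19 (others −1.64 to 0.70), 1.12 for CYP2C18 (others −0.72 to 0.08) and 0.90 for CYP4V2 (others −0.33 to 0.18). At 7 d pair 4 was at −1.08 for CYP17A1 (others −0.09 to 0.75) and −0.93 for CYP4F2 (others 0.07 to 0.43). Pair 3 was at 0.85 for CYP21 (others −0.23 to 0.16), pair 5 at 3.30 for CYP2J2 (others −0.82 to 1.13) and pair 10 at −0.54 for CYP3A4 (others 0.01 to 0.47). The cows of pairs 2 and 3 also differed in feeding (B5F125 over B4F75).

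The effect of feeding on CYP4B1 over all days differed between BCS5 and BCS4 cows by −2.93 on the log2 scale in the test of the interaction, on the unadjusted p. The gene was dim and had values on 38 arrays.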

How the results depend on the processing

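No called value changed sign under any alternative. At an adjusted p under 0.05, 0 P450 genes were called in every comparison that had a call. For 7 d vs −7 d (1 gene called), 2 genes were called with each probe on its own, with the gene by gene mixed model, on the arrays between days alone and without dim spots. For 28 d vs −7 d (3), 1 was called with scaled arrays, with a loess correction and without dim spots, and 0 on the arrays between days alone. For 28 d vs 7 d (1), 2 were called with the mixed model and 0 on the arrays between days alone. For BCS5 vs BCS4 over all days (1), 0 were called among genes on all 48 arrays, with the mixed model, on the arrays of that comparison alone and without dim spots. At −7 d (1), 0 were called on those arrays alone, and at 28 d (0) 1 was called with scaled arrays and 1 without the 2 arrays with few blanks. For B5F125 vs B5F75 at 7 d (1), 0 were called without centering, with scaled arrays, with each probe on its own, on all 48 arrays and without dim spots, and 2 on those arrays alone. For the interaction over all days (1), 0 were called on all 48 arrays, with the mixed model, on those arrays alone, without dim spots and without the 2 arrays with few blanks, and at 7 d (0) 1 was called on those arrays alone. The cause was not tested. The loess correction, the removal of dim spots and that of the 2 arrays were chosen after seeing the data.

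Cow pair as a block: with the replicate block as a fixed effect 2 genes were called at 7 d vs −7 d and 2 at 28 d vs 7 d, and without a block 2 were called for BCS5 vs BCS4 over all days. In the other comparisons neither fit moved the count by over 1.5 times.

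Without each cow pair in turn, the called genes numbered 0 to 3 at 7 d vs −7 d, 1 to 3 at 28 d vs −7 d, 0 to 3 at 28 d vs 7 d, 0 to 2 for BCS5 vs BCS4 over all days and for B5F125 vs B5F75 at 7 d, 0 at every fit for B4F125 vs B4F75 at 28 d, and 0 to 1 in each of the other comparisons.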
